A study of Mus musculus with 4 samples.

Results

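Receptors for the constant part of immunoglobulins were followed in mouse bone marrow-derived macrophages (BMDMs) on 4 microarrays. The group consists of 6 genes, namely Fcgr1, Fcgr3, Fcgr4, Fcer1g, Fcgr2b and Fcgrt. They were chosen by name, as all non-control probes whose gene name in the array annotation is one of these symbols. Each gene had 1 probe, so that 6 of 55681 probes and 6 of 22897 named genes are members. All 6 probes were well above background on all 4 arrays.

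The samples were cultures of BMDMs from 10-week-old C57BL/6J mice, kept in L929 supernatant for 6 days and then stimulated for 2 days. Wild-type cells received IFN-γ at 20 ng per ml with LPS at 100 ng per ml (M1) or IL-4 at 50 ng per ml (M2). Lamtor1-deficient cells, which the labels give as p18 (2400001E08Rik) -/-, received IL-4 at 50 ng per ml, and further wild-type cells received IL-4 at 50 ng per ml together with 250 nM of Torin1, an inhibitor of the mTOR kinase. By the methods of the study, the deletion was conditional, with Lamtor1 flox/flox alleles and a LysM-Cre transgene that acts in myeloid cells, so the cells lose Lamtor1 as they develop and not at the time of stimulation. All 4 cultures shared the same strain, age and differentiation. The control mice of the study were littermates with the floxed alleles and no Cre, whereas the labels of the arrays give wild type.

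Each condition had 1 array, hence no difference between conditions has a replicate check and no test was made. The only error that could be measured was technical. Over probes spotted at least 8 times and well above background, the median SD of repeated spots within each array was combined for the arrays compared. For a log2 ratio this gave 0.086 for Lamtor1-deficient over M2, 0.091 for Torin1 over M2 and 0.095 for M1 over M2. This technical SD holds no variation from labelling or hybridization of separate arrays. Culture-to-culture spread was not measured. A difference is described as a call here when it reached 2-fold. Lamtor1 itself had 2.34% of its M2 signal in the Lamtor1-deficient culture, in which its processed signal was 833 against 39460. Nos2 (inducible nitric oxide synthase) had a signal of 166513 in M1 and 228 in M2, while Mrc1 (the mannose receptor) had 125 in M1 and 75196 in M2. The macrophage markers Csf1r, Adgre1, Itgam, Cd68, Mertk and Cd14 were well above background on all arrays.

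Fc receptors let macrophages sense antibodies that have bound a target. Fcgr1 encodes the high-affinity IgG receptor, and Fcgr3 and Fcgr4 encode activating IgG receptors of lower affinity. These 3 receptors have no signalling motif of their own and depend on the common γ-chain, the product of Fcer1g, whose cytoplasmic ITAM recruits tyrosine kinases of the Src and Syk families and leads to phagocytosis and cytokine release. Fcgr2b encodes the inhibitory IgG receptor, whose ITIM recruits the lipid phosphatase SHIP (Inpp5d) and thereby dampens the activating receptors. Fcgrt encodes the heavy chain of the neonatal Fc receptor FcRn, which pairs with β2-microglobulin (B2m), binds IgG in acidic endosomes and returns it to the cell surface. The balance between activating receptors and Fcgr2b is known to shift with the cytokines that macrophages encounter.

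Since the results compare close relatives, the sequences that the arrays measured are shown first. Each probe is an oligonucleotide of 60 bases, of which the first 30 are given in lower case.
Fcgr1: ccacatgtgcagggcatgcagacacagaca
Fcgr3: ctacaaaagtaatttctctatcccaaaagc
Fcgr4: ccaagaagcgattcttcagaattttacact
Fcer1g: aggtccccatctccgttaaagacttactca
Fcgr2b: acttctgtgagtcctgaaaccaacagacac
Fcgrt: gctggaggttaaacgtggagatgagcacca
In the array annotation on mm9, the probes of 4 members lay on chromosome 1, namely Fcgr2b at chr1:172890988-172891047, Fcgr4 at chr1:172959738-172959797, Fcgr3 at chr1:172984129-172984188 and Fcer1g at chr1:173159794-173159853. The Fcgr1 probe lay at chr3:96086839-96086898 and the Fcgrt probe at chr7:52350556-52350615. Exon and UTR annotation of that build was not used here. Over all 15 pairs of full-length member probes, the longest run of identical bases was between 5 and 8, so no 2 of these probes shared a long stretch. Fcgr2b and Fcgr3, whose coding sequences are close relatives, shared a run of 6 bases. No other probe on the array had the same sequence as a member probe.

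The promoters of all 3 members that were higher in M1 (Fcgr1, Fcgr4 and Fcer1g) are shown beside that of inhibitory Fcgr2b, which was not higher. They are the 250 bases before the annotated start site in RefSeq on GRCm38.p6, 5′ to 3′ on the strand of the gene, with motif matches in capitals.
Fcgr1, chr3:96293970-96294219, minus strand: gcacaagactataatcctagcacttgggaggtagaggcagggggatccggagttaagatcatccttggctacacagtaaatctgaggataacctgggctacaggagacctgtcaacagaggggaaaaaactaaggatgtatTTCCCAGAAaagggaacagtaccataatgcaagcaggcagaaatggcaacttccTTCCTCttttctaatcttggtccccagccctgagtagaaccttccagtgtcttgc
Fcgr4, chr1:171018676-171018925, plus strand: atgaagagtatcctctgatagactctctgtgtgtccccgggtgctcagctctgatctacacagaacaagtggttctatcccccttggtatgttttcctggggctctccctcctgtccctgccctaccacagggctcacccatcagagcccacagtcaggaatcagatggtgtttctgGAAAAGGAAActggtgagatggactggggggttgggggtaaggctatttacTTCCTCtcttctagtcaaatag
Fcer1g, chr1:171234350-171234599, minus strand: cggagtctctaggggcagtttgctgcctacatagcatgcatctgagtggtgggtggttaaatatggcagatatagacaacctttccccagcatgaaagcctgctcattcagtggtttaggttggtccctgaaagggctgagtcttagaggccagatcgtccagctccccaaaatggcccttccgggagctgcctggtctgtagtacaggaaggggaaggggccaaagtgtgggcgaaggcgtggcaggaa
Fcgr2b, chr1:170976072-170976321, minus strand: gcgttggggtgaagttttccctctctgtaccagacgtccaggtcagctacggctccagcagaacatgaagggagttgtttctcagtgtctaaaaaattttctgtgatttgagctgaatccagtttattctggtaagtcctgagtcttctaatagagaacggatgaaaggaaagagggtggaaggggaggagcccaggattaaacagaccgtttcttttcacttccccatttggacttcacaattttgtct
Motifs searched on both strands were the interferon-γ-activated site TTCNNNGAA (GAS), the wider-spaced form TTCNNNNGAA preferred by STAT6, the repeat GAAANNGAAA of interferon response elements, and GAGGAA, the core of many PU.1 sites. GAS and the STAT6 form share the same half-sites and differ in spacing. Fcgr1 held 1 GAS match, beginning 109 bases before the start site, and 1 GAGGAA match on the opposite strand. Fcgr4 held 1 match to the interferon repeat, beginning 73 bases before the start site, and 1 GAGGAA match. In the windows of Fcer1g, which was also higher in M1, and of Fcgr2b and Fcgrt none of the 4 motifs was found, which says only that these letters are not in these 250 bases, and both windows of Fcgr3 held a GAGGAA match alone. Of 32851 promoter windows of the same length, 7.02% held the GAS letters, 5.85% the STAT6 form, 2.98% the interferon repeat and 23.3% GAGGAA. These matches are descriptions of the sequence and were not tested for binding.

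Among the activating receptors, Fcgr1 differed the most between the arrays. Its processed signal was 8379 in M1, 3091 in M2, 89.5 in Lamtor1-deficient BMDMs and 100 in Torin1-treated BMDMs. The lowest signals of probes called well above background were 20.1 on the Lamtor1-deficient and 15.7 on the Torin1 array, so Fcgr1 was dim but above background in both. After division by the 75th percentile of each array, the levels were 29.2, 5.20, 0.167 and 0.213 in the same order. The log2 ratio to M2 was -4.96 for Lamtor1-deficient cells (31.1-fold lower), -4.61 for Torin1 (24.4-fold lower) and 2.49 for M1 (5.62-fold higher). These steps were far larger than the technical SD. The Lamtor1-deficient and Torin1 arrays differed by 0.35 at this scaling, but their ratios were -4.90 and -4.86 with each array shifted to its median and -4.76 and -4.58 under quantile normalization, so their order is not resolved. With another background correction (normexp), the Fcgr1 ratios were -4.13 and -3.87, so the sizes of these low values depend on the background while their direction did not change.

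Fcgr4 had the highest signal in M1 as well, but its order over the IL-4 cultures was different. The processed signal of this receptor, which binds certain IgG subclasses, was 67406 in M1, 15671 in M2, 14413 in Lamtor1-deficient BMDMs and 5351 in Torin1-treated BMDMs. M1 stood apart at the top and Torin1 at the bottom, and the M2 and Lamtor1-deficient arrays lay within 2 technical SD of each other. The log2 ratios to M2 were 3.16 for M1 (8.92-fold), -1.21 for Torin1 (2.31-fold lower) and 0.03 for Lamtor1-deficient cells.

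Fcgr3 encodes the activating receptor most closely related to Fcgr2b. Its signal was 8806 in M1, 20626 in M2, 16430 in Lamtor1-deficient BMDMs and 22519 in Torin1-treated BMDMs, and the levels relative to the 75th percentile were 30.7, 34.7, 30.6 and 47.9. Torin1 gave the highest level, and the other 3 arrays followed each other within 2 technical SD per step at this scaling. With the median shift the M1 ratio was -0.997, well below the -0.11 of Lamtor1-deficient cells. No log2 ratio to M2 reached 2-fold, with -0.18 for Lamtor1-deficient cells, 0.47 for Torin1 and -0.18 for M1.

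Fcer1g, the γ-chain shared by these receptors, was bright on every array. Its signal was 397930 in M1, 215074 in M2, 223340 in Lamtor1-deficient BMDMs and 153459 in Torin1-treated BMDMs, and no spot on any of the arrays was marked as saturated. M1 was the highest, at 3.84-fold over M2 (log2 ratio 1.94), while the log2 ratios for Lamtor1-deficient cells and Torin1 were 0.20 and -0.15. The M2 and Torin1 levels lay within 2 technical SD of each other at this scaling, but the Torin1 ratio was -0.39 with the median shift and -0.71 under quantile normalization. Under quantile normalization the M1 ratio of Fcer1g was 0.90, below 2-fold, and the Lamtor1-deficient ratio changed sign to -0.05.

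Inhibitory Fcgr2b was measured by 10 spots per array, which makes it the member with the best known technical error. On the M1 array, 9 of the spots were used and ranged from 8531 to 9255 around a mean of 8873. On the M2 array, 9 spots gave a mean of 22365 and a range from 22038 to 22981. All 10 spots were used on the other arrays, with means of 20816 in Lamtor1-deficient BMDMs and 29963 in Torin1-treated BMDMs and ranges of 20419 to 21570 and 28968 to 31129. The coefficient of variation over spots was between 1.45% and 2.32%. Relative to the 75th percentile the level was the highest with Torin1, followed by Lamtor1-deficient and M2, and M1 was the lowest. The Lamtor1-deficient and M2 levels differed by 0.046 on the log2 scale, within 2 technical SD of the array as a whole. The standard errors over the spots of this probe were 0.0084 and 0.0069, but they hold no variation between arrays. This ratio was -0.16 under quantile normalization and 0.11 with the median shift, so its sign is not resolved. No ratio reached 2-fold, with log2 values of 0.05 for Lamtor1-deficient cells, 0.76 for Torin1 and -0.28 for M1. At this scaling Torin1 and M1 thus differed from M2 by more than the technical error but by less than 2-fold, while with the median shift the M1 ratio was -1.10, past 2-fold.

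Fcgrt, which handles internalized IgG and does not signal, was highest in M2. Its signal was 8721 in M2, 1793 in M1, 3114 in Lamtor1-deficient BMDMs and 1683 in Torin1-treated BMDMs. All 3 other arrays were more than 2-fold below M2, with log2 ratios of -1.34 for Lamtor1-deficient cells (2.52-fold lower), -2.03 for Torin1 (4.10-fold lower) and -1.23 for M1 (2.35-fold lower). M1 and Lamtor1-deficient levels lay within 2 technical SD of each other and Torin1 was the lowest at this scaling, whereas with the median shift the ratios were -1.27 for Lamtor1-deficient cells, -2.28 for Torin1 and -2.05 for M1. Its partner B2m was not lower on any of these arrays, with log2 ratios of 0.38, 0.52 and 1.39 in the same order, and a signal of 227978 in M2 and 287067 in M1.

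**Figure D1:**
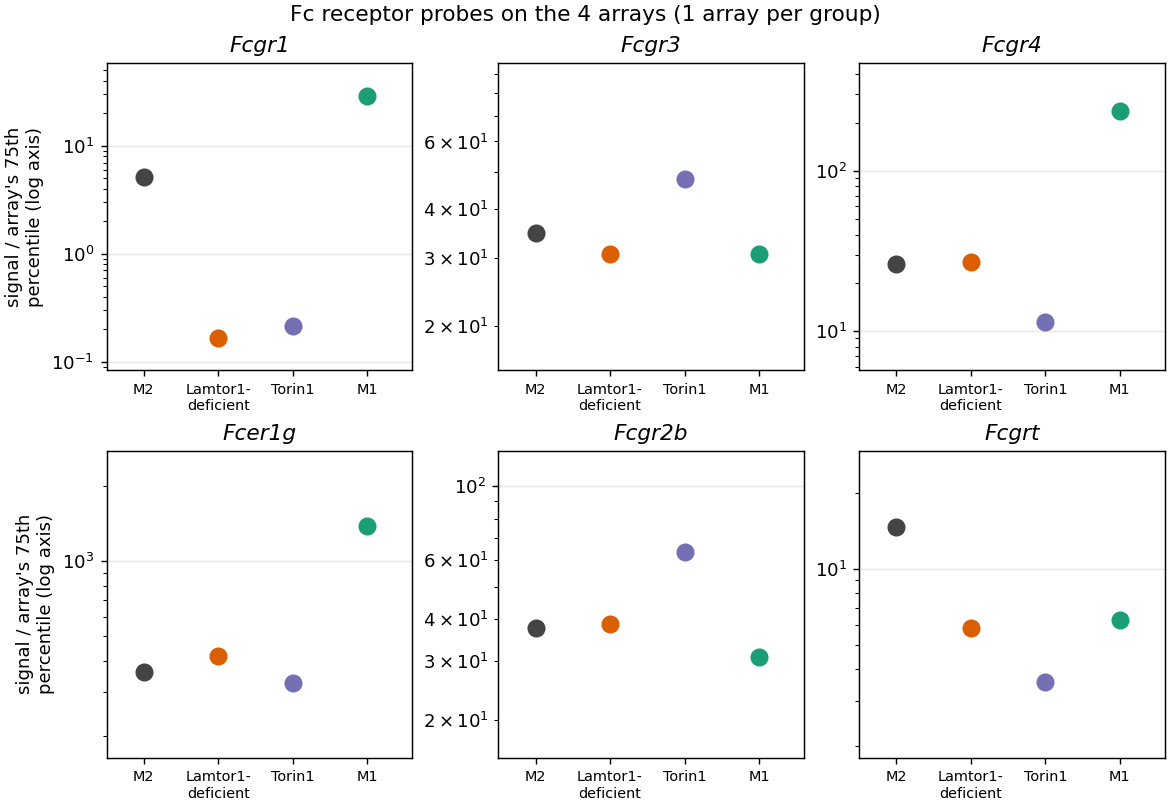
Signal of the 6 Fc receptor probes divided by the 75th percentile of each array (log axis, with its own range for each gene), with 1 point per array and no replicates. Fcgr1 spans from 0.167 in Lamtor1-deficient BMDMs to 29.2 in M1, whereas Fcgr3 lies between 30.6 and 47.9 on all arrays, and Fcgrt is highest in M2.

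All 3 comparisons use the same M2 array, so an unusual value on that array would enter each of them. Over all named genes, 8.91% were 2-fold or more higher and 8.62% lower in Lamtor1-deficient cells than in M2. Of the 6 receptors, 0 were higher, 2 were lower (Fcgr1 and Fcgrt) and 4 lay within 2-fold, with a median log2 ratio of -0.07 against 0.04 for all genes. With Fcgr1 counted, 83 of 22878 genes (0.363%) had a ratio at or below its own. For Torin1, the shares of all genes were 14.2% higher and 11.8% lower. Of the receptors, 0 were higher and 3 were lower (Fcgr1, Fcgr4 and Fcgrt), with a median of -0.68 against -0.05 for all genes. Here 164 of 22872 genes (0.717%), with Fcgr1 counted, had a ratio at or below that of Fcgr1.

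In M1 over M2, 30.4% of all genes were higher and 19.4% lower. The receptors had 3 higher (Fcgr1, Fcgr4 and Fcer1g), 1 lower (Fcgrt) and 2 within 2-fold. Their median log2 ratio was 0.88. The median over all genes was 0.73, but it was 0.079 over the 13140 genes well above background on both arrays, a class to which all 6 receptors belong. Of these genes, 24.9% were higher and 25.4% lower. When each array was shifted to its median instead, the median over all genes was -0.09 and the M1 ratios of the receptors were lower to the same extent. On that scale Fcgr4 was at 2.34, Fcgr1 at 1.67 and Fcer1g at 1.12, still past 2-fold. Under the same scaling Fcgr2b was at -1.10, past 2-fold downward, Fcgr3 was just short of it, and Fcgrt at -2.05. At the main scaling, 961 of 22887 genes (4.20%) had an M1 ratio at or above that of Fcgr4 and 1816 (7.93%) at or above that of Fcgr1.

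**Figure D2:**
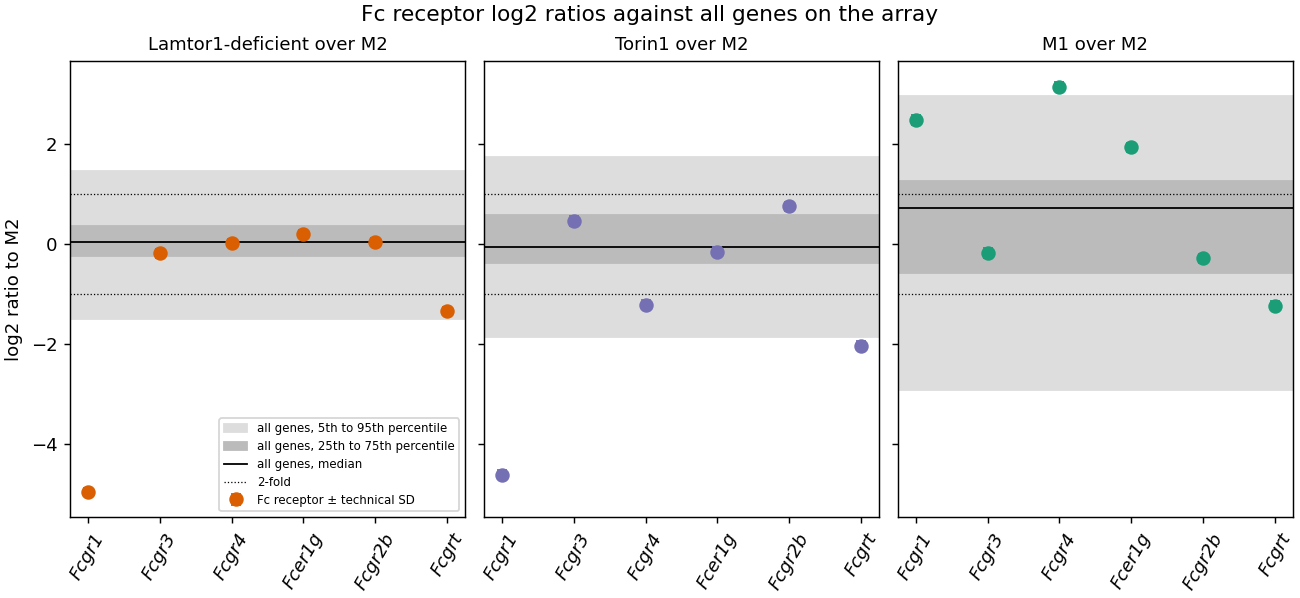
Log2 ratio to M2 of the 6 Fc receptors (points, with the technical SD as error bars, mostly smaller than the points) over the range of all named genes (grey bands, 5th to 95th and 25th to 75th percentile, with the median as a line). Fcgr1 lies far below the bands for Lamtor1-deficient and Torin1-treated BMDMs, and Fcgr4 lies above the 95th percentile for M1.

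Because a shift of a whole array cancels in the difference between genes, the contrast of activating receptors with Fcgr2b was taken as the log2 ratio of each gene minus that of Fcgr2b. In Lamtor1-deficient cells this difference was -5.01 ± 0.087 for Fcgr1 (technical error), -0.22 for Fcgr3, -0.02 for Fcgr4 and 0.16 for Fcer1g. Thus Fcgr1 departed from Fcgr2b by 32.2-fold, and the other activating genes stayed within 1.17-fold of it. The technical error comes from repeated spots within arrays, and with normexp the Fcgr1 difference was -4.20. With Torin1 all 4 differences were negative, at -5.37 ± 0.092 for Fcgr1, -1.97 for Fcgr4, -0.91 for Fcer1g and -0.30 for Fcgr3. Fcgr4 thereby stood 3.92-fold lower against Fcgr2b than in M2, and Fcgr2b itself had a log2 ratio of 0.76. The median of the 4 differences was -0.12 in Lamtor1-deficient cells, -1.44 with Torin1 and 2.50 in M1.

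In M1 all 4 differences were positive, opposite to those with Torin1. They were 3.44 ± 0.096 for Fcgr4 (10.8-fold), 2.77 for Fcgr1 (6.83-fold) and 2.22 for Fcer1g (4.66-fold), whereas Fcgr3 differed from Fcgr2b by 0.11, about the technical error. For Fcer1g the M1 difference was 1.43 under quantile normalization. Fcgr3 and Fcgr2b stayed close in all comparisons, with differences of -0.22, -0.30 and 0.11. Fcgrt, which is no activating receptor, was lower relative to Fcgr2b in each comparison, with -1.38 in Lamtor1-deficient cells, -2.80 with Torin1 and -0.95 in M1.

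**Figure D3:**
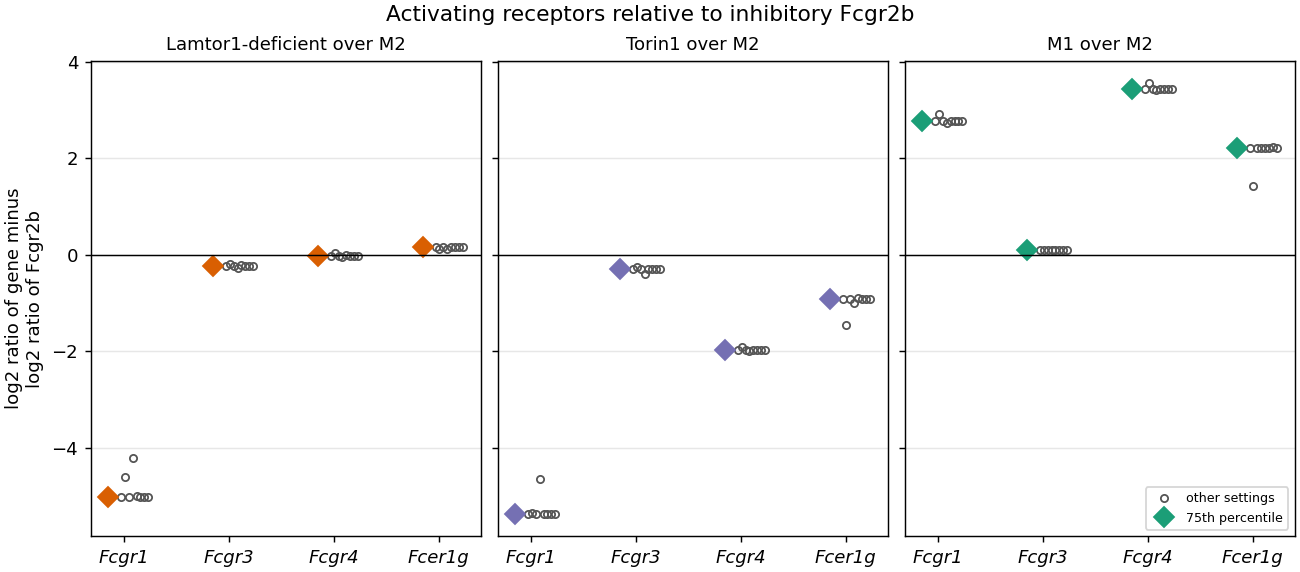
Log2 ratio to M2 of each activating gene minus that of Fcgr2b, in the 3 comparisons. Filled diamonds use the 75th percentile of each array, open circles the other scalings, background corrections and spot rules, which move mainly Fcgr1 (normexp, to -4.20 in Lamtor1-deficient cells) and Fcer1g (quantile, to 1.43 in M1).

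Of the members, 4 lie in the same stretch of chromosome 1, in the order Fcgr2b, Fcgr4, Fcgr3 and Fcer1g, and their positions did not order their ratios. From probe to probe, Fcgr4 lay 68.8 kb from Fcgr2b, Fcgr3 a further 24.4 kb away, and Fcer1g another 176 kb away. Fcgr4, with an M1 ratio of 3.16, therefore sat between Fcgr2b and Fcgr3, with -0.28 and -0.18. Between Fcgr2b and Fcgr4, a probe for a transcript without a gene symbol had signals of 367 in M1, 86.8 in M2, 29.3 in Lamtor1-deficient BMDMs and 71.3 in Torin1-treated BMDMs. Its log2 ratios were 3.13, -1.42 and 0.06 for M1, Lamtor1-deficient and Torin1 over M2. Sdhc, a subunit of succinate dehydrogenase that lies between Fcgr3 and Fcer1g, was at -1.06 in M1 and -1.41 with Torin1.

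**Figure D4:**
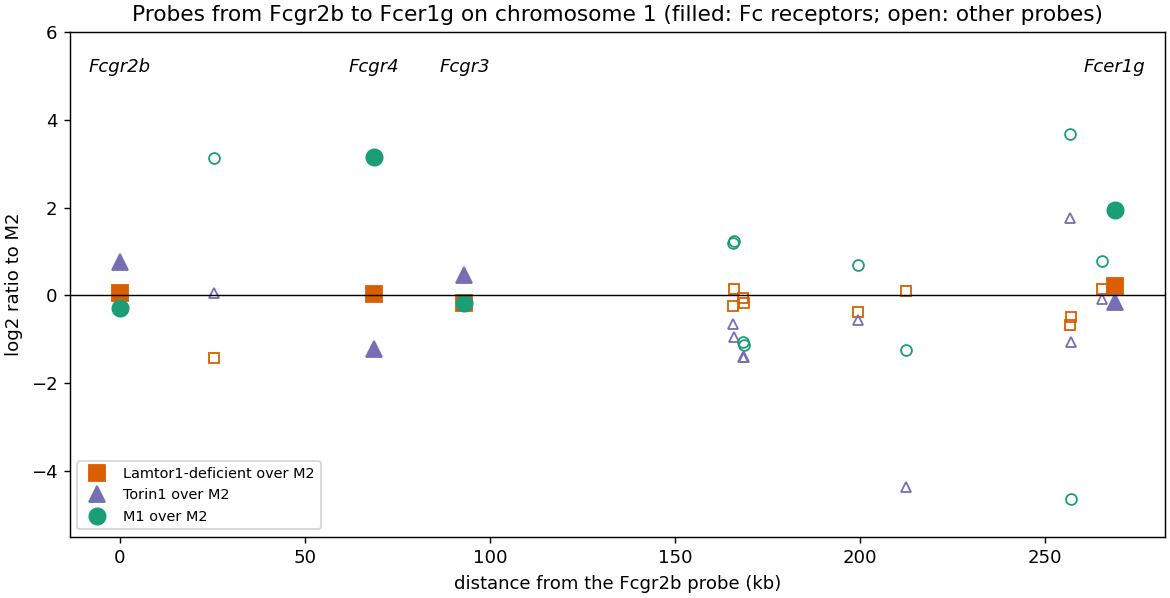
Log2 ratio to M2 against distance from the Fcgr2b probe in kb, for the 14 of 17 probes from Fcgr2b to Fcer1g that were well above background on all 4 arrays. Filled symbols are the Fc receptors, open symbols are other probes, and squares, triangles and circles are Lamtor1-deficient, Torin1 and M1 over M2, with Fcgr4 high in M1 between Fcgr2b and Fcgr3.

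Downstream of the activating receptors, kinases, adaptors and cytoskeletal regulators were taken from a list of 20 genes, of which 19 had a probe (Syk was not analysed here), all well above background. Over all genes well above background, 7.90% were higher and 7.70% lower in Lamtor1-deficient cells, with a median of 0.088, and 11.9% and 13.2% with Torin1, with a median of 0.012. In Lamtor1-deficient cells 0 of the 19 were 2-fold higher and 2 lower, with a median of -0.46. These were Fgr, a Src-family kinase, at -1.66, and Prkcd, a protein kinase C, at -1.26. With Torin1, 0 were higher and 4 lower, with a median of -0.70, and the lower ones were Fgr at -2.09, Dock2, a Rac exchange factor, at -1.95, Blnk, an adaptor of Btk and phospholipase C, at -1.72 and the kinase subunit Pik3cd at -1.58. In M1, 5 were higher and 4 lower, with a median of -0.12 against 0.079 for genes well above background, of which 24.9% were higher and 25.4% lower, so these counts were close to the background. The largest M1 values were 2.99 for the adaptor Gab2, 1.66 for the GTPase Rac2, and in the other direction -1.77 for Prkcd, -1.64 for Dock2 and -1.48 for Plcg2. The other probe of Dock2 was at -0.24 in M1, so that call rests on 1 of 2 probes. With each array shifted to its median, Rac2 lies within 2-fold in M1. The Src-family kinase Lyn was at 0.00, -0.83 and 0.44 for Lamtor1-deficient, Torin1 and M1 over M2.

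On the inhibitory side, 8 genes that act with or after the ITIM were measured. None was 2-fold higher in Lamtor1-deficient or Torin1-treated cells, 2 and 3 were lower, and the medians were -0.50 and -0.70, against 7.70% and 13.2% lower among all genes well above background. Dok2, an adaptor that restrains Ras signalling, had the largest differences in Lamtor1-deficient and Torin1-treated cells, though not in M1. Its signal was 86216 in M2, 10314 in M1, 3454 in Lamtor1-deficient BMDMs and 1617 in Torin1-treated BMDMs. Its log2 ratios were -4.49, -5.40 and -2.01 for Lamtor1-deficient, Torin1 and M1 over M2, unlike its relative Dok1, which had -0.60, 0.05 and 1.43.

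Csk, the kinase that switches off the Src family, was lower on all 3 arrays, with -1.06, -1.12 and -2.27. Inpp5d (SHIP), which docks on Fcgr2b, was at -0.57, -1.23 and -0.56, and passed 2-fold with Torin1 at the main scaling. The tyrosine phosphatases Ptpn6 and Ptpn11 had -0.44 and 0.05 in Lamtor1-deficient cells, 0.34 and -0.91 with Torin1 and -0.70 and -1.25 in M1. The ubiquitin ligases were at -0.31, -0.36 and -0.11 for Cbl and -0.18, -0.50 and -2.56 for Cblb. In M1 at the main scaling, 1 of the 8 genes was higher (Dok1) and 4 lower, with a median of -0.98. Among all genes well above background, 24.9% were higher and 25.4% lower.

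Other macrophage receptors with an ITIM varied among themselves. Of 10 such genes, 5 were lower in Lamtor1-deficient and 6 in Torin1-treated cells, with 0 higher in either and medians of -0.71 and -2.04, while M1 had 4 higher and 2 lower. Over all genes, 8.91% were higher and 8.62% lower in Lamtor1-deficient cells, 14.2% and 11.8% with Torin1 and 30.4% and 19.4% in M1, so the M1 count of higher genes was near that share. Among those well above background on both arrays, 4, 5 and 1 were lower, since Clec12a was above background on the M2 array alone. Sirpa, a receptor that restrains phagocytosis, stayed within 2-fold at the main scaling, at 0.26, 0.12 and -0.74 for Lamtor1-deficient, Torin1 and M1 over M2. Cd72, a receptor best known from B cells, had -2.67 and -6.07, Cd300a had -2.51 and -3.12, and Pilra had -3.67 and -2.70 for Lamtor1-deficient and Torin1 over M2. The 3 probes of Pilra ranged from -3.83 to -1.06 and from -4.55 to -2.68 in these comparisons, and from 2.79 to 4.85 in M1. Lair1, a collagen receptor, was at -0.01 and -3.07. In M1, Pilra was at 4.84 by its brightest probe, Pirb (listed under its other name Lilrb3) at 2.11, Lilrb4 at 1.78 and Siglece at 1.49, and Lair1 was at -1.76. A shift of each array to its median lowers all M1 ratios to the same extent and brings Lilrb4 and Siglece within 2-fold. Pirb, Lilrb4 and Siglece stayed within 2-fold in Lamtor1-deficient and Torin1-treated cells at the main scaling, Siglece narrowly so at 0.98 with Torin1. Clec4a2 was at -1.41 in Lamtor1-deficient cells and -1.38 with Torin1.

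A list of 7 adaptors and receptors around ITAM signalling included Tyrobp (DAP12), the closest counterpart of the γ-chain, whose log2 ratios of 0.25, 0.08 and 0.23 stayed within 2-fold. Clec4e (Mincle), which itself couples to the γ-chain, had a signal of 28383 in M1, 451 in M2, 12770 in Lamtor1-deficient BMDMs and 11455 in Torin1-treated BMDMs, giving 4.97, 5.01 and 7.03. Clec4n (Dectin-2), another partner of the γ-chain, was at -1.26 in Lamtor1-deficient cells, 2.75 with Torin1 and 5.31 in M1. Clec4d followed with -0.48, 2.18 and 2.62, Hcst (DAP10), an adaptor that has no ITAM and binds PI3-kinase, was at 1.08 with Torin1, and Trem2, a partner of Tyrobp, was at -2.62 in M1. Of the 7, 1 was higher and 1 lower in Lamtor1-deficient cells, 4 and 0 with Torin1, and 3 and 1 in M1. Among all genes well above background the shares higher and lower were 7.90% and 7.70%, 11.9% and 13.2%, and 24.9% and 25.4%. The list medians were 0.10, 1.08 and 0.66.

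**Figure D5:**
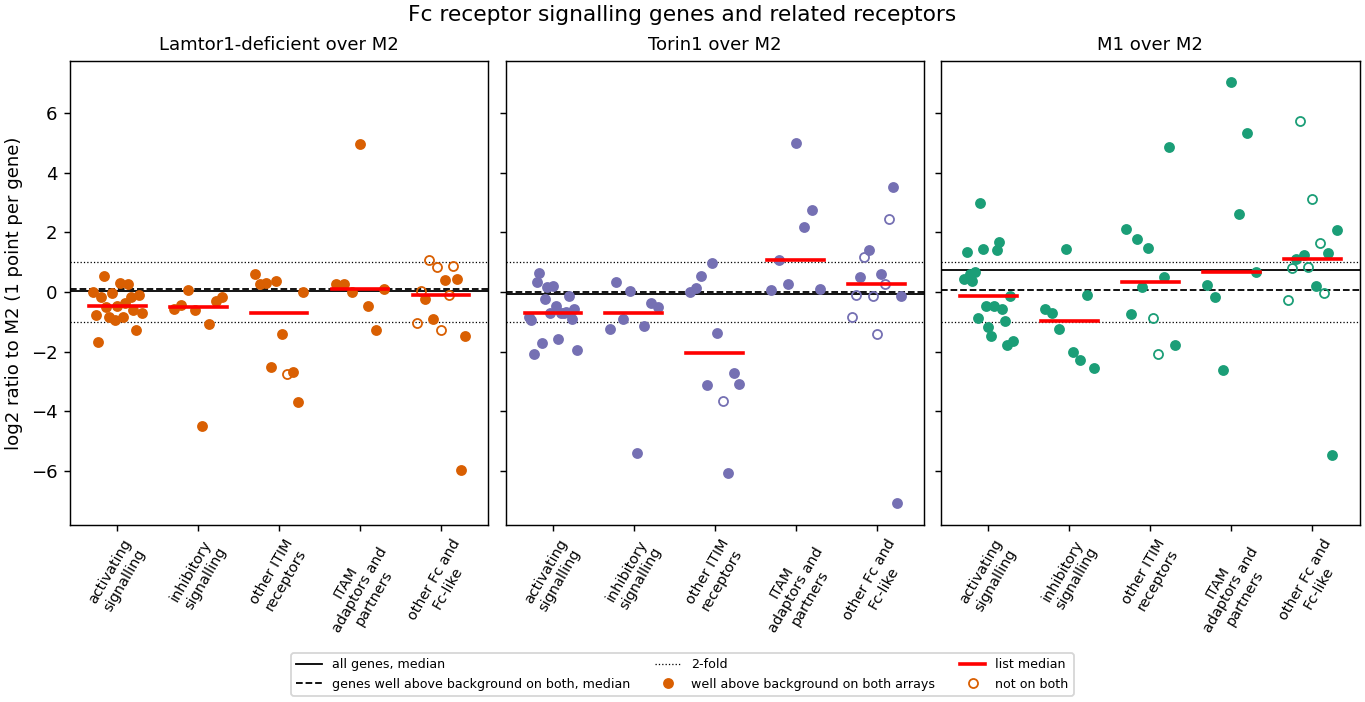
Log2 ratio to M2 of the genes of 5 lists related to Fc receptors (1 point per gene, open where the probe was not well above background on both arrays), with list medians in red and the medians of all genes (solid) and of genes well above background (dashed) in black. Inhibitory signalling genes have a median of -0.98 in M1, where the median of genes well above background is 0.079 (dashed), and other ITIM receptors have a median of -2.04 with Torin1.

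Of 13 other Fc and Fc-like receptors, 6 were well above background on both arrays of each comparison. Fcrls, a scavenger-type Fc receptor-like gene of macrophages, had a signal of 32863 in M2, 470 in Lamtor1-deficient, 192 in Torin1-treated and 363 in M1 BMDMs, with log2 ratios of -5.98, -7.08 and -5.45. It was thus high on the M2 array alone. Trim21, a cytosolic antibody receptor, was at -1.47 in Lamtor1-deficient cells, -0.14 with Torin1 and 2.07 in M1. Pigr, the transport receptor for polymeric immunoglobulins, was at 1.42 with Torin1 and 1.25 in M1 by its brighter probe, and at -0.12 and 0.85 by the other. Fcrlb was at 3.50 with Torin1 and 1.30 in M1, and Fcer2a was at 1.12 in M1. Both were dim in M1 and M2, with signals of 32.2 and 27.2 for Fcrlb and 51.7 and 49.5 for Fcer2a. Their M1 ratios and that of Pigr fall within 2-fold when each array is shifted to its median. Fcer1a and Ms4a2, the other chains of the IgE receptor that contains the γ-chain, were not well above background on any array. Including probes not above background, the list had 1 higher and 4 lower genes in Lamtor1-deficient cells, 4 and 2 with Torin1 and 7 and 1 in M1, with medians of -0.11, 0.28 and 1.12. The shares over all genes were 8.91% and 8.62%, 14.2% and 11.8%, and 30.4% and 19.4%.

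Transcription factors that are known to act on Fc receptor genes were all well above background. Irf1, which IFN-γ induces, had log2 ratios of 0.22, 1.48 and 3.74 for Lamtor1-deficient, Torin1 and M1 over M2. Irf8 had -0.31, 0.37 and -0.14, Spi1 (PU.1) -0.37, -0.92 and 0.73, and Stat6, the mediator of IL-4, 0.06, 0.08 and 0.35. The other probe of Irf1 was at 0.70 with Torin1 and 2.15 in M1, and the 3 probes of Stat6 ranged from -0.51 to 0.87 with Torin1 and from 0.35 to 1.38 in M1. The level of a transcript does not measure the activity of these factors.

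Genes whose 3 log2 ratios were most like those of a receptor were sought among 12681 genes with a signal well above background on each array, by Euclidean distance on the log2 scale. For Fcgr1 they were A530064D06Rik at a distance of 1.24, Slamf9 at 1.60 and Aif1, a marker of activated macrophages, at 2.03. Aif1 had -4.20, -6.50 and 2.50 against -4.96, -4.61 and 2.49 for Fcgr1. For Fcgr4, Dnajb4 lay at 0.145 with ratios of -0.06, -1.30 and 3.23, followed by 5033430I15Rik at 0.424 and Fam49a at 0.429. Fcgr2b and Fcgr3, whose ratios were small, had close neighbours, with A530054K11Rik at 0.058, Lrfn3 at 0.067 and Ddx41 at 0.081 for Fcgr2b, and Hnrnpul1 at 0.064, Taldo1 at 0.080 and Ppm1a at 0.097 for Fcgr3. These distances rest on 4 arrays that share M2 and are given as a description.

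In RNA of a whole culture, fewer cells that express a gene and less RNA per cell cannot be told apart. Neutrophils and their precursors also carry Fc receptors, and of 6 neutrophil markers 5 had a probe (Ly6g was not analysed here). Mpo, Camp, Ngp and Ltf had a summed level over the 75th percentile of 10.6 in M2, 0.670 in Lamtor1-deficient, 0.355 in Torin1-treated and 0.443 in M1 BMDMs. These 4 genes were at least 2-fold lower than in M2 on all 3 arrays, so they moved with Fcgr1 in the Lamtor1-deficient and Torin1-treated cells but not in M1, where Fcgr1 was highest. Elane, the remaining marker, ran the other way, with log2 ratios of 0.58 in Lamtor1-deficient cells and 2.07 in M1. With it, the list summed to 23.0 in M2, 19.3 in Lamtor1-deficient cells and 52.5 in M1. The part of neutrophils in the Fcgr1 result was not tested. Elane had signals of 14926 in M1, 7390 in M2 and 9970 in Lamtor1-deficient cells, and its spot on the Torin1 array was left out as an outlier.

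In these lists, Ms4a1 (B cells), Klrb1c and Klrk1 (NK cells) and Fcer1a and Ms4a2 (mast cells and basophils) were not well above background on any array. Cd79a, Cd79b, Gzma and Tpsb2 were above background on all 4. Cd79b, a B cell receptor chain, had signals of 361 in M2, 174 in Lamtor1-deficient cells, 25.3 with Torin1 and 26.2 in M1. Its partner Cd79a had 295, 74.5, 76.5 and 106 in the same order, with log2 ratios of -1.84, -1.61 and -0.43, although its other probe was at -0.20, 0.83 and 1.42. The mast cell tryptase Tpsb2 had 361 in M1, 157 in M2, 113 in Lamtor1-deficient cells and 395 with Torin1. Its probes disagreed, with log2 ratios of -0.32 and 1.38 in Lamtor1-deficient cells and 1.68 and 0.29 with Torin1. The NK cell granzyme Gzma had 26.6 in M1, 65.7 in M2, 602 in Lamtor1-deficient cells, which was 10.2-fold higher than in M2, and 34.0 with Torin1. The summed levels of the B cell list lay between 0.274 (Torin1) and 1.16 (M2), of the NK cell list between 0.098 (Torin1) and 1.37 (Lamtor1-deficient, with Ncr1 at a signal of 123) and of the mast cell and basophil list between 0.261 (Lamtor1-deficient) and 1.32 (M1). The fibroblast list summed to 53.9 in Lamtor1-deficient, 41.9 in M2, 16.0 in M1 and 15.3 in Torin1-treated BMDMs. Its members did not move together in M1 over M2, where Col1a1 and Col1a2 had log2 ratios of -3.81 and -2.40 and Dcn had 2.55. All 5 had ratios above 0 in Lamtor1-deficient cells and below 0 with Torin1. Macrophage markers summed to 685 in M2, 468 in Lamtor1-deficient, 543 in Torin1-treated and 375 in M1 BMDMs, and they did not move together. Adgre1 (F4/80) was at -2.57, -2.81 and -1.04 for Lamtor1-deficient, Torin1 and M1 over M2, whereas Cd68 was at 0.55, 0.70 and 0.56 and Mertk at 0.34, 0.90 and 0.42. Of the 6 markers, 2, 4 and 3 had log2 ratios above 0 in these comparisons by the brightest probe, with Cd14 at 0.0008 for Torin1. Other probes reached -2.34 and -2.81 for Itgam and -1.86 and -2.14 for Csf1r in Lamtor1-deficient and Torin1-treated cells. The part of these cells in the receptor results was not tested.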

How the data were processed

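Total RNA of 4 BMDM cultures was labelled with Cy3 and hybridized to Agilent 1-colour arrays. The deposited scanner files hold the authors' spot intensity, background-subtracted and detrended within the array by Agilent Feature Extraction (10.7.3.1 per the file headers, 10.5.1.1 per the labels) and not normalized between arrays. A deposited table of the series holds the same intensity, within 0.497%. Mean signals and local background medians served for normexp.

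Control and outlier spots were left out (170 to 226 per array), spots of a probe were averaged, and following the study's methods the signal was thresholded at 1, divided by the 75th percentile of the array (287 to 595) and put on the log2 scale. A gene was represented by its brightest probe, with the highest mean over the 4 arrays. Between 50.9% and 55.4% of probes were well above background. A probe was called 2-fold higher or lower without a test. The precision of each value is limited by 1 array per group. Of 22897 symbols, 21762 (95.0%) were in the RefSeq table.

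The members and lists were chosen with earlier results of these data known. The genes named were all members, the deleted gene, up to 4 genes with the largest ratios per list and comparison (well above background on both arrays), genes of the inhibitory, B2m and transcription factor lists, and the 3 genes most like Fcgr1, Fcgr2b, Fcgr3 and Fcgr4. A few of them are not reported here. Markers, Lyn, Sirpa, Clec12a and Sdhc were named outside this rule, after their values were seen. The procedure was tested on scaled copies of the M2 array with small noise, and changes were planted in probes well above background on all arrays. This checks the calculation only and not dim probes or other variation between arrays. Scripts ran in Python 3.11.15 (NumPy 2.4.6, pandas 2.3.3, matplotlib 3.10.9), and normexp in R 4.3.3 (limma 3.58.1).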

Additional observations from a re-analysis of the deposited data

How the results depend on the processing

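No paired analysis was possible because each group had 1 array. For the same reason no array could be left out. Of 144 alternative values of single receptors and 96 of differences from Fcgr2b, none changed the sign of a receptor called 2-fold. Many of these values could not differ from the main ones, so the totals overstate the check. A shift of a whole array cancels in the differences, each receptor had 1 probe and none was dim enough for a floor. The table of the series holds the same intensity. With each array shifted to its median, the receptors' median log2 ratio was -0.93 for Torin1 and 0.061 for M1, 2 receptors instead of 1 were lower in M1, and the 63 genes of the 7 lists had 11 higher and 22 lower in M1 instead of 23 and 12, and 7 and 21 with Torin1 instead of 9 and 15. Quantile normalization gave 18 and 18 in M1, where 2 receptors instead of 3 were higher. Under quantile normalization the receptors' median was -0.26 (Lamtor1-deficient), -0.93 (Torin1) and 0.24 (M1), Fcgr1 minus Fcgr2b was -4.60 in Lamtor1-deficient and 2.91 in M1, Fcgr4 minus Fcgr2b was 3.56 in M1, Fcer1g minus Fcgr2b was -1.46 with Torin1 and 1.43 in M1, and the median difference of the 4 activating genes was -1.68 with Torin1 and 2.17 in M1. Quantile normalization also turned small, uncalled Lamtor1-deficient ratios negative (Fcgr4 -0.11, Fcer1g -0.05, Fcgr2b -0.16). With normexp and an offset of 50, Fcgr1 minus Fcgr2b was -4.20 (Lamtor1-deficient) and -4.65 (Torin1), Fcgr3 minus Fcgr2b was -0.39 with Torin1 and the M1 median was 0.74. A 3-fold threshold left 1 lower receptor in Lamtor1-deficient cells and 0 in M1, and list counts of 1 higher and 7 lower (Lamtor1-deficient), 5 higher (Torin1) and 14 higher (M1). The list count higher in Lamtor1-deficient cells was 1 instead of 2 with the percentile over probes well above background, normexp, a floor at the dimmest such probe, or only probes above background. The cause of these shifts was not tested. Keeping outlier spots or using the values of the series table changed none of these counts. Averaging all probes of a gene left the receptors as they were, since each had 1 probe, and gave list counts of 8 higher and 17 lower with Torin1. Low signal limits Fcgr1 in the Lamtor1-deficient and Torin1-treated cells.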
